A study of Homo sapiens with 12 samples.

Results

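The 10 genes described here encode the enzymes that make and break down polyamines and the proteins that control ornithine decarboxylase. They were chosen by symbol, as the rows of the deposited count table whose Ensembl identifiers carry the names ODC1, AMD1, SRM, SMS, SAT1, SMOX, PAOX, OAZ1, OAZ2 and AZIN1. All 10 were found among 57992 entries, and all 10 passed the filter on low counts that left 15407 genes for testing. RNA was sequenced from human prostate adenocarcinoma cell lines after poly(A) selection. LNCaP is an androgen-responsive line labelled sensitive to the antiandrogen enzalutamide, MR49F is an LNCaP derivative labelled resistant, and C4-2 is a castration-resistant LNCaP subline labelled sensitive. Each line gave 3 libraries, called biological replicates in the series design. All are LNCaP-derived cells in culture, each line is a single line, and the labels give no drug treatment or medium, so whether MR49F was grown in enzalutamide is not known here. A further 3 columns of the table could be the other labelled line, C4-2R, by elimination only. Their header matches no sample title, so C4-2R was not analysed here.

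Polyamines are small positively charged molecules that bind nucleic acids and are needed for growth. Ornithine decarboxylase makes putrescine. Spermidine synthase and spermine synthase then add aminopropyl groups supplied by S-adenosylmethionine decarboxylase. Acetylation followed by oxidation returns spermine and spermidine toward putrescine, and antizymes bind ornithine decarboxylase and send it to the proteasome. The prostate secretes large amounts of spermine, and androgens are known to raise the expression of several of these genes in prostate cells. RNA levels alone were measured here, so enzyme activity and polyamine content are not described.

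Total gene counts lay between 6990461 and 9375912 per library, except for 42770072 in C4-2 replicate 1, which stood apart in depth by 5.68 times the mean of the other C4-2 libraries. The 10 genes together took 0.265% to 0.297% of the counts of a library. The prostate luminal markers KLK3, KLK2, FOLH1, TMPRSS2, HOXB13, KRT8 and KRT18 were each at 68.6 CPM or more in every library, with TMPRSS2 in LNCaP the lowest (CPM is the count of a gene scaled to a fixed library size, so that libraries of different depth can be compared). KLK3, the gene of prostate-specific antigen, ranged from 2586 to 2764 CPM in LNCaP, 3265 to 3593 in MR49F and 3949 to 4821 in C4-2. Of 10 markers of immune, endothelial, stromal and basal cells, 5 had no count in LNCaP, 4 none in MR49F and 5 none in C4-2, and the 10 summed to 28.1 to 32.4, 6.88 to 6.90 and 18.7 to 23.1 CPM in these lines, with CD3E, COL1A2 and KRT5 at 0 in all 9 libraries. COL1A1 made up most of those sums, and the part of these differences in the results below was not tested. No pair of replicates differed by as little as counting noise, with a chi-square per degree of freedom of 1.51 to 21.3, highest between C4-2 replicates 1 and 2.

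Promoter sequence was taken from RefSeq windows (GRCh38.p14) for 7 of the 10 genes, SMOX, PAOX and AZIN1 having no entry. The stretches below lie before the start and stop at the first base of an annotated exon. SMS and AMD1 are shown because they changed most, in opposite directions, between MR49F and LNCaP, and SRM because it holds the motif marked. Capitals mark the letters CACGTG, the E-box that MYC and MAX bind, searched on both strands.
SRM, chr1:11060025-11060268, minus strand: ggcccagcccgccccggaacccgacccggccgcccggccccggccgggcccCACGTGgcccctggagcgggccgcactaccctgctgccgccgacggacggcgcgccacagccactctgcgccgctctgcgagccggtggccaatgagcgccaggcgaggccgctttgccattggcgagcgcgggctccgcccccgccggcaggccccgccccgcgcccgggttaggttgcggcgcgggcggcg
SMS, chrX:21940459-21940572, plus strand: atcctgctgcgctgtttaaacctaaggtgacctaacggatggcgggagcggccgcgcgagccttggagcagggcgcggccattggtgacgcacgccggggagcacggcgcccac
AMD1, chr6:110874535-110874769, plus strand: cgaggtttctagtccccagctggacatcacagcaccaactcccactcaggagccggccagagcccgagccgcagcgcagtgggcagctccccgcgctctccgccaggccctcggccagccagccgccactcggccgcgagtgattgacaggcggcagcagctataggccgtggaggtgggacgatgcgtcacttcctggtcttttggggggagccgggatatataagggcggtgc
The SRM stretch held 1 CACGTG, starting 199 bases before the RefSeq start. The SMS and AMD1 stretches held none. Over the 10 windows used, taken as the 250 bases before each start, 2 held the motif, the other being that of a downstream ODC1 start, 29 bases before it and mostly inside annotated exon. Of all 35116 RefSeq windows of that length, with no chromosome left out, 6.34% held CACGTG. A match is a description of the letters only.

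The levels of the 10 genes spanned a wide range, compared here as CPM per kilobase of annotated exon. ODC1 was the highest in each line, at 202 ± 3.35 in LNCaP, 265 ± 4.11 in MR49F and 211 ± 12.4 in C4-2 (SD, n = 3 each). By this measure 0.756%, 0.639% and 0.678% of tested genes lay above it. AMD1 (161) and OAZ1 (140) followed in LNCaP, while OAZ1 (135) lay above AMD1 (98.3) in MR49F and above it in C4-2 (169 against 152). SMOX and PAOX were the lowest everywhere, between 0.873 and 1.97 CPM per kilobase. For SMOX, 77.3% to 87.0% of tested genes were higher. Exon length counts every annotated exon (7027 bases for AMD1 and 3436 for OAZ1), so these levels are approximate.

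**Figure D1:**
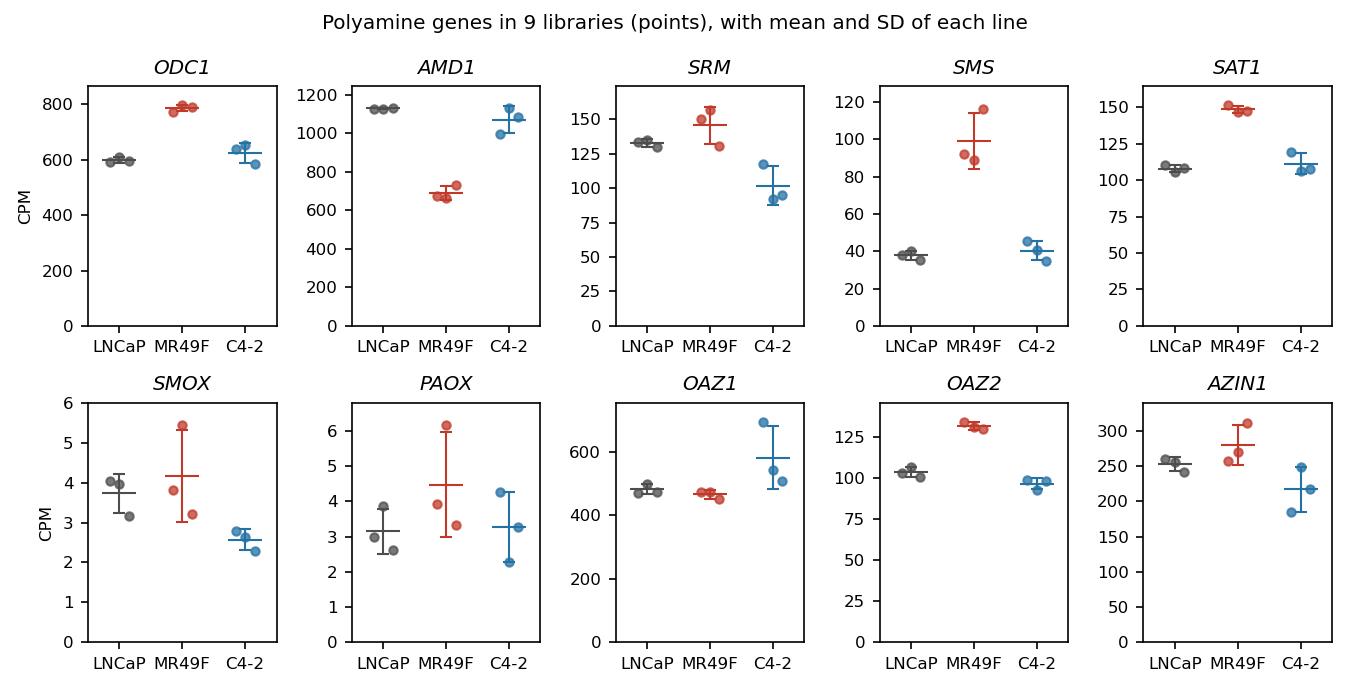
CPM (vertical axis, linear from 0) of the 10 polyamine genes in LNCaP, MR49F and C4-2. Points are single libraries, bars are the mean and SD of 3 replicates. SMS averaged 37.7, 99.1 and 40.3 CPM and AMD1 1129, 690 and 1071 CPM in the order of the lines, and MR49F did not overlap the others for either gene.

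The comparison of MR49F with LNCaP set the resistant line against the sensitive line it came from. The synthesis genes moved in opposite directions, with SMS and ODC1 higher and AMD1 lower in MR49F, and the catabolic gene SAT1 and the antizyme gene OAZ2 were higher. In all, 4 of the 10 genes rose and 1 fell, where 47.0% of all tested genes were called in either direction, 24.1% as higher and 22.8% as lower. The share of called genes among the 10 was therefore close to that of the whole table. For 5 of the 10 the replicates of MR49F and LNCaP had separate ranges, against 59.8% of all tested genes. The median log2 fold change of the 10 was 0.25, against 0.01 over all tested genes. All adjusted p-values below are from the quasi-likelihood test of edgeR.

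Among the synthesis genes, SMS (ENSG00000102172, GRCh38 chromosome X, 21940573 to 21994835), which makes spermine from spermidine, changed most. Its level was 38.1, 40.02 and 35.1 CPM in the LNCaP libraries, 92.1, 89.1 and 116 CPM in MR49F and 45.3, 40.8 and 34.96 CPM in C4-2. Every MR49F library was higher than every library of the other lines. The difference from LNCaP was a log2 fold change of 1.39 (SE 0.113, adjusted p = 2.49e-09), or 2.62-fold, and 9.53% of tested genes changed by more. SMS was the only one of the 10 that changed by over 2-fold, as 13.2% of all tested genes did.

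AMD1 (ENSG00000123505, chromosome 6, 110874770 to 110895713) encodes S-adenosylmethionine decarboxylase, the source of the aminopropyl groups that SMS uses. It stood at 1128, 1126 and 1134 CPM in LNCaP, at 674, 665 and 732 CPM in MR49F and at 998, 1134 and 1083 CPM in C4-2. The MR49F libraries were all below the others. AMD1 fell by 0.71 on the log2 scale in MR49F against LNCaP (SE 0.0740, adjusted p = 1.04e-07), 1.64-fold lower.

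ODC1 (ENSG00000115758, chromosome 2, 10439968 to 10448504), which encodes ornithine decarboxylase, stood at 591, 610 and 595 CPM in LNCaP, 774, 798 and 789 CPM in MR49F and 639, 653 and 584 CPM in C4-2. It rose in MR49F by 0.39 (SE 0.0710, adjusted p = 1.13e-04), 1.31-fold, and MR49F did not overlap the other lines. SRM (ENSG00000116649, chromosome 1, 11054584 to 11060024), the spermidine synthase gene, was at 134, 135 and 130 CPM in LNCaP and 150, 156 and 130 CPM in MR49F. Those replicates overlapped, and its log2 fold change of 0.13 did not pass (adjusted p = 0.271, 95% interval -0.07 to 0.33).

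Ratios of counts within a library do not depend on the scaling between libraries. For each SMS count there were 29.6, 28.1 and 32.3 AMD1 counts in the LNCaP libraries, 7.32, 7.46 and 6.31 in MR49F and 22.01, 27.8 and 31.0 in C4-2. MR49F was thus far below both sensitive lines in this ratio, with no overlap. The ODC1 to AMD1 ratio was 0.530 ± 0.00999 in LNCaP, 1.14 ± 0.0613 in MR49F and 0.585 ± 0.0515 in C4-2 (SD, n = 3 each). In MR49F alone ODC1 counts exceeded AMD1 counts, but counts also grow with exon length (2968 bases for ODC1 and 7027 for AMD1). Per kilobase of exon, ODC1 was above AMD1 in every line. These ratios were chosen after the values were seen and were not tested.

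**Figure D2:**
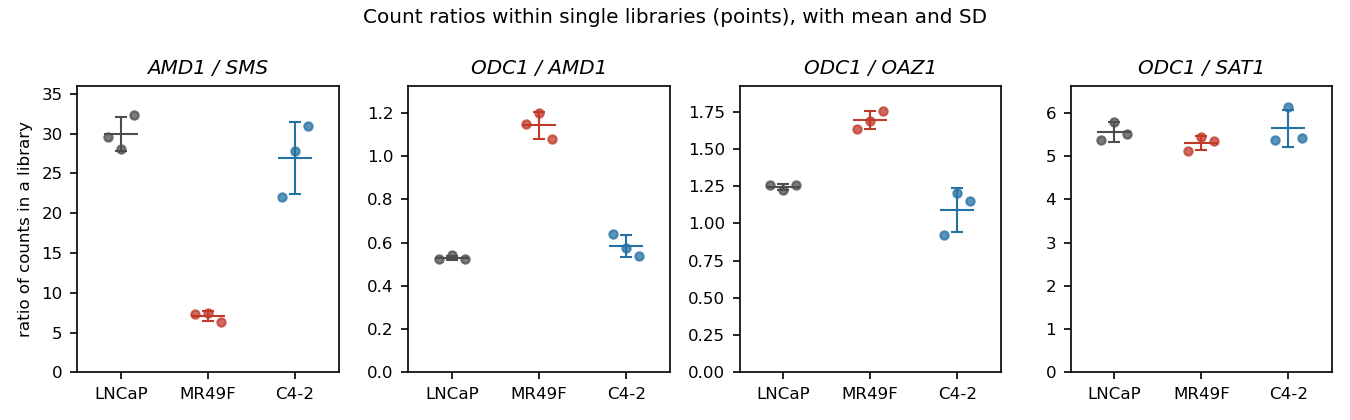
Ratio of counts of 2 genes within each library (vertical axes, linear from 0) for LNCaP, MR49F and C4-2. Points are libraries, bars are the mean and SD of 3 replicates. The AMD1 to SMS ratio averaged 30.0, 7.03 and 26.9, while ODC1 to SAT1 averaged 5.55, 5.30 and 5.64 with overlapping libraries.

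Of the catabolic genes, SAT1 (ENSG00000130066, chromosome X, 23783173 to 23786226) encodes the acetyltransferase that starts polyamine breakdown and export. It was at 110, 105 and 108 CPM in LNCaP, 151, 147 and 148 CPM in MR49F and 119, 107 and 108 CPM in C4-2. MR49F lay above both other lines, and the rise over LNCaP was 0.46 (SE 0.0771, adjusted p = 5.00e-05), 1.38-fold. ODC1 and SAT1 kept a ratio of 5.11 to 5.80 across the LNCaP and MR49F libraries. SMOX (ENSG00000088826, chromosome 20), spermine oxidase, had 23 to 46 counts in these libraries and a log2 fold change of 0.14 (adjusted p = 0.637, 95% interval -0.33 to 0.62). PAOX (ENSG00000148832, chromosome 10), the oxidase of acetylated polyamines, had 19 to 52 counts and one of 0.49 (adjusted p = 0.151, 95% interval -0.08 to 1.06). Both intervals include a rise of 1.5-fold as well as no change.

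Among the regulators, OAZ2 (ENSG00000180304, chromosome 15, 64687573 to 64703281), an antizyme gene, stood at 103, 107 and 101 CPM in LNCaP, 134, 131 and 130 CPM in MR49F and 99.0, 92.6 and 97.9 CPM in C4-2. It rose in MR49F by 0.35 (SE 0.0753, adjusted p = 7.37e-04), 1.27-fold, with no overlap. OAZ1 (ENSG00000104904, chromosome 19, 2269509 to 2273490), the more abundant antizyme gene, was at 471, 499 and 474 CPM in LNCaP and 474, 473 and 450 CPM in MR49F. Its log2 fold change was -0.05 (adjusted p = 0.698, 95% interval -0.24 to 0.14). AZIN1 (ENSG00000155096, chromosome 8, 102826357 to 102893864) encodes the antizyme inhibitor, which binds antizymes in place of ornithine decarboxylase. It was at 261, 255 and 242 CPM in LNCaP and 258, 270 and 312 CPM in MR49F (log2 fold change 0.15, adjusted p = 0.225, 95% interval -0.05 to 0.35). For each OAZ1 count there were 1.24 ± 0.0191 ODC1 counts in LNCaP, 1.69 ± 0.0607 in MR49F and 1.09 ± 0.149 in C4-2.

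Both C4-2 and LNCaP are labelled sensitive, and only SRM (lower in C4-2) and OAZ1 (higher in C4-2) were called between them. These 2 calls of 10 compare with 49.7% of all tested genes, 26.2% higher and 23.5% lower, and the replicates did not overlap for 4 of the 10 against 55.8%. The median absolute log2 fold change was 0.15 for the 10 genes and 0.32 over all tested genes. SRM was at 118, 91.8 and 95.2 CPM in C4-2, below every LNCaP library, and fell by 0.37 (SE 0.0957, adjusted p = 0.00286). OAZ1 was at 693, 544 and 508 CPM in C4-2, above LNCaP, and rose by 0.28 (SE 0.0925, adjusted p = 0.0176). That call was lost without the deeply sequenced C4-2 replicate 1, where the log2 fold change was 0.13 (adjusted p = 0.1004). It was also lost without LNCaP replicate 1 (0.25, adjusted p = 0.0825) or LNCaP replicate 3 (0.26, adjusted p = 0.0751), and over all alternatives the adjusted p ran from 0.00321 to 0.1004.

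Neither SMS nor ODC1, SAT1 and AMD1 passed in C4-2. Their log2 fold changes against LNCaP were 0.12 (95% interval -0.12 to 0.36), 0.06 (-0.08 to 0.21), 0.05 (-0.11 to 0.21) and -0.08 (-0.23 to 0.08). SMOX had 116, 21 and 16 counts and lay at 2.78, 2.65 and 2.28 CPM in C4-2, below LNCaP (4.05, 3.97 and 3.16 CPM), without passing (log2 fold change -0.50, adjusted p = 0.0733). It passed with C4-2 replicate 1 thinned to the depth of the others (-0.66, adjusted p = 0.0406) and with GC offsets (-0.61, adjusted p = 0.0214). AZIN1 was at 185, 249 and 218 CPM in C4-2 with a log2 fold change of -0.22 (adjusted p = 0.0614). It passed without C4-2 replicate 2 (-0.34, adjusted p = 0.00287), without MR49F replicate 3 (adjusted p = 0.0381), with voom (0.0429), without a count filter (0.0445) and with GC offsets (0.0453), and its adjusted p ran from 0.00287 to 0.221 over the alternatives. OAZ2 (-0.10, adjusted p = 0.302) and PAOX (0.18, adjusted p = 0.583) had no call.

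The direct comparison of MR49F with C4-2 tested the difference between the derivatives. It shares its MR49F and C4-2 libraries with the comparisons above and is not independent of them. Of the 10 genes, 7 were higher in MR49F, 2 were lower and PAOX did not pass, where 61.0% of all tested genes were called, 29.9% as higher and 31.1% as lower. Replicates did not overlap for 9 of the 10, against 62.0% of tested genes. SMS (log2 fold change 1.27, adjusted p = 3.33e-09), SRM (0.51, adjusted p = 1.13e-04), OAZ2 (0.44), SAT1 (0.41), AZIN1 (0.37, adjusted p = 0.00243) and ODC1 (0.33) were higher, and AMD1 was lower (-0.63, adjusted p = 2.80e-07). OAZ1 was lower (-0.32, adjusted p = 0.00474), and by only -0.18 without C4-2 replicate 1 (adjusted p = 0.0184). SMOX was higher (0.64, adjusted p = 0.0161), a call lost without MR49F replicate 2 (0.41, adjusted p = 0.151). For PAOX the log2 fold change was 0.30 (adjusted p = 0.293), and it passed without C4-2 replicate 1 (0.69, adjusted p = 0.0378).

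In the order of their mean levels, SRM, AZIN1, OAZ2 and SMOX ran C4-2, LNCaP, MR49F from low to high, and ODC1, SMS, SAT1 and PAOX ran LNCaP, C4-2, MR49F. AMD1 ran MR49F, C4-2, LNCaP and OAZ1 ran MR49F, LNCaP, C4-2. LNCaP and C4-2 were neighbours without a call for ODC1, SMS, SAT1, AMD1, OAZ2, SMOX, PAOX and AZIN1. LNCaP and MR49F were neighbours without a call for SRM, SMOX, OAZ1 and AZIN1, and C4-2 and MR49F for PAOX.

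**Figure D3:**
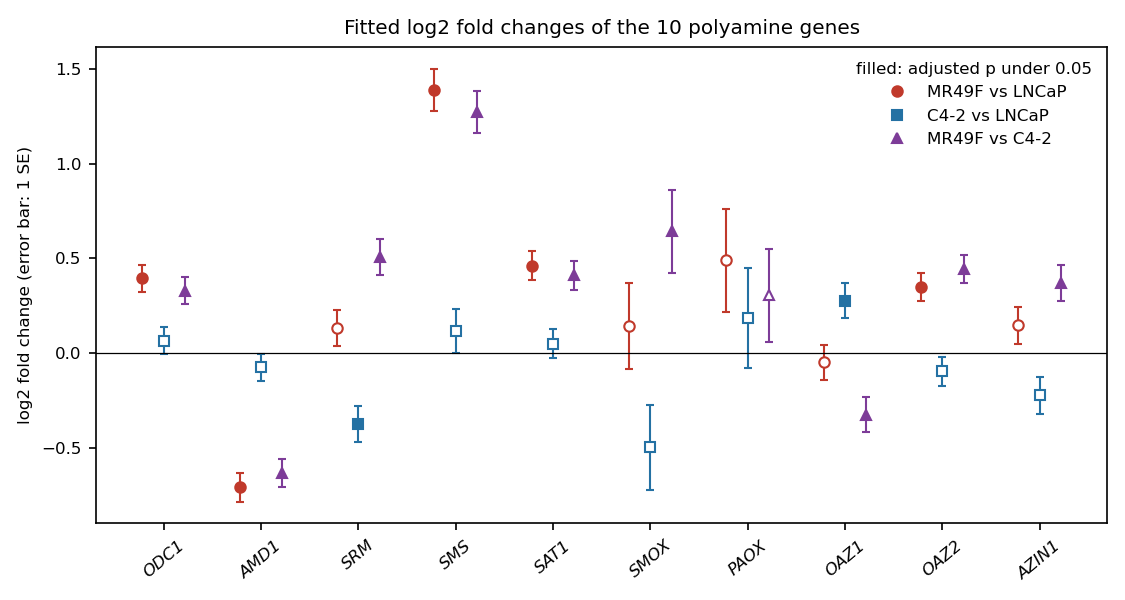
Fitted log2 fold change (vertical axis) of the 10 polyamine genes in 3 comparisons, with error bars of 1 SE. Filled symbols have an edgeR adjusted p under 0.05. SMS reached 1.39 in MR49F against LNCaP and AMD1 -0.71, while the C4-2 values lay between -0.50 and 0.28.

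The positions of the genes were compared with those of other genes on the same chromosome, an analysis added after the values were seen. SMS and SAT1 both lie on the short arm of chromosome X, 1.84 Mb apart. Of 553 other tested genes of chromosome X, 64.0% rose in MR49F against LNCaP and 7.59% fell, with a median log2 fold change of 0.54. The rise of SAT1 (0.46) was below that median, and 57.3% of the chromosome's genes had a higher value. SMS (1.39) was above it, with 8.86% of the chromosome's genes higher. Within 2 Mb of SMS, 10 of 12 tested neighbours rose and 2 fell (median 0.65), among them RPS6KA3 (1.20) and CNKSR2 (1.71), which was the only neighbour above SMS. That median depended on the window, at 0.97 for 1 Mb and 0.66 for 5 Mb. For SAT1, 10 of 16 neighbours rose and 2 fell, with a median of 0.45 that was 0.33 for 1 Mb and 0.69 for 5 Mb. Within 2 Mb, SMS and SAT1 were each counted among the other's neighbours, and their windows overlap. In C4-2, where neither gene had a call, the chromosome's median was -0.11.

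Most neighbours of ODC1 rose in MR49F as well. Of 30 tested neighbours within 2 Mb, 18 rose and 1 fell, with a median log2 fold change of 0.41 against 0.39 for ODC1 itself, while the median of chromosome 2 was 0.12. Of the other tested genes of chromosome 2, 34.3% rose and 16.4% fell. In C4-2, 12 of the 30 neighbours of ODC1 rose and 3 fell, while ODC1 itself (0.06) had no call. Their median there was 0.19, and 0.19 to 0.47 over the windows tried. Of the other tested genes of chromosome 2, 24.5% rose and 23.5% fell in C4-2 (median -0.03). The neighbours of OAZ1 on chromosome 19 were lower in MR49F (6 of 102 rose, 40 fell, median -0.24). So was the chromosome as a whole (6.22% rose, 47.5% fell, median -0.31), and OAZ1 itself was at -0.05. In C4-2, 27 of 44 neighbours of SMOX fell and 3 rose, with a median of -0.40 beside -0.50 for SMOX. Of the other tested genes of chromosome 20, 31.8% fell and 22.6% rose in C4-2 (median -0.10). There 12 of 17 neighbours of AZIN1 rose and 0 fell, with a median of 0.52 beside -0.22 for AZIN1. Of the other tested genes of chromosome 8, 37.4% rose and 10% fell (median 0.20). The median of the AZIN1 neighbours depended on the window, at 0.16 for 1 Mb and 0.29 for 5 Mb. Of 27 neighbours of AMD1 in MR49F, 2 rose and 6 fell, with a median of -0.04 beside -0.71 for AMD1 itself, and TRAF3IP2 (-2.07), SESN1 (-1.41) and DDO (-1.08) were lower than AMD1. On chromosome 6, 22.3% of the other tested genes rose and 21.7% fell. Of 46 neighbours of OAZ2 in MR49F, 8 rose and 9 fell, with a median of -0.02 beside 0.35 for OAZ2, and 7 had a higher value. On chromosome 15, 25.8% of the other tested genes rose and 19.6% fell. DNA was not measured, and the part of a gene's surroundings in its own difference was not tested. With GC content entered as an offset for each library, an alternative added after the data were seen, the log2 fold changes in MR49F against LNCaP were 1.38 for SMS, 0.44 for SAT1, 0.39 for ODC1, 0.34 for OAZ2 and -0.73 for AMD1, and the median of chromosome X was 0.52.

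**Figure D4:**
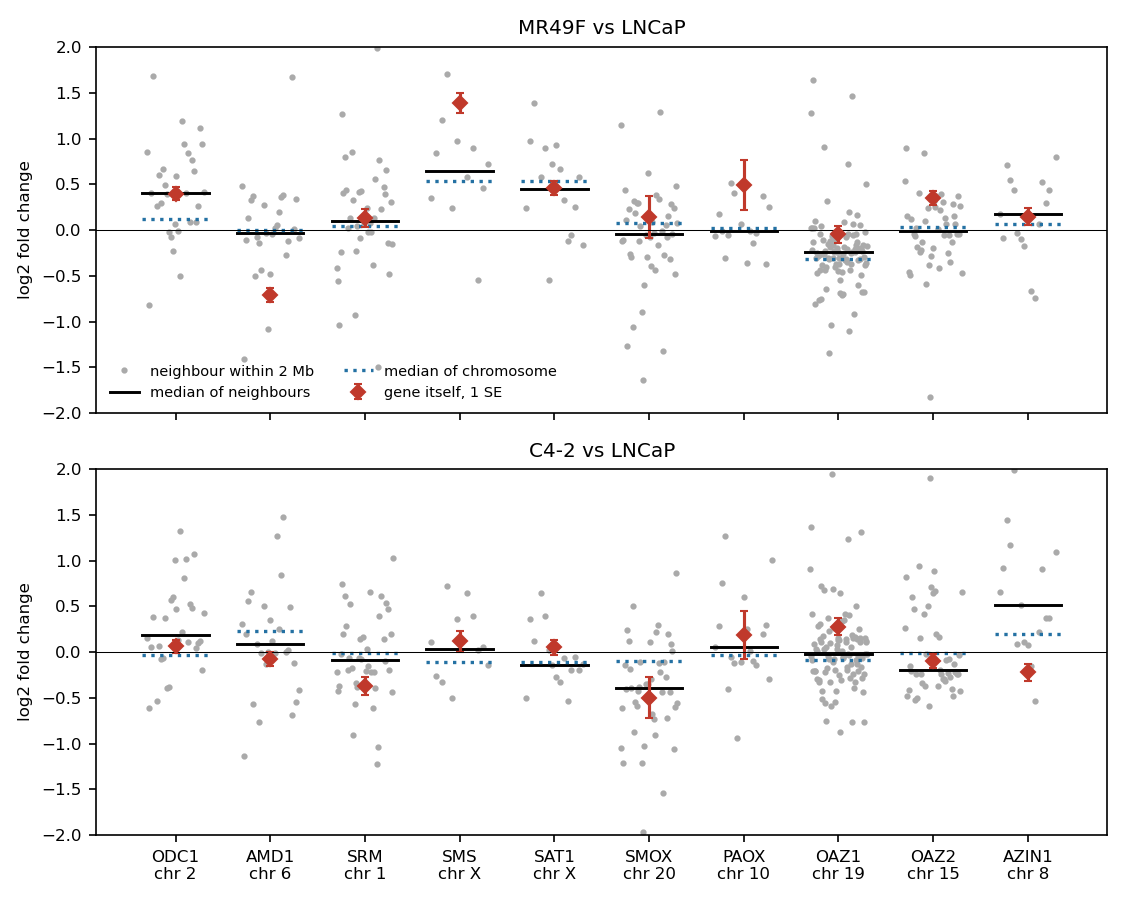
Log2 fold change (vertical axis) of each polyamine gene (diamond, 1 SE), of tested genes within 2 Mb of its start (grey points), their median (black line) and the median of the rest of the chromosome (dotted line), in MR49F and in C4-2 against LNCaP. The axis stops at 2 in both directions, which leaves out 17 and 10 of 355 neighbour points. In MR49F, ODC1 (0.39) sat at the median of its neighbours (0.41), while SMS (1.39) lay above its median (0.65) and AMD1 (-0.71) below its own (-0.04).

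Genes that feed or use the pathway were taken from 7 lists of 48 genes, of which 39 were tested. In MR49F against LNCaP 13 rose and 8 fell, 21 of 39 beside 47.0% of all tested genes, 24.1% higher and 22.8% lower, with a median log2 fold change of 0.12. In C4-2 against LNCaP 10 rose and 14 fell, 24 of 39 beside 49.7% of all tested genes, 26.2% higher and 23.5% lower (median -0.09). These counts include MAT1A, as lower in MR49F and higher in C4-2, although it passed the count filter through C4-2 alone.

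Arginine and ornithine supply held some of the most changed genes of these lists. In MR49F 3 of 6 were up and 2 down, beside 24.1% and 22.8% of all tested genes. ASS1, which makes argininosuccinate for arginine synthesis, stood at 29.3, 29.9 and 27.0 CPM in LNCaP and 4.48, 4.62 and 3.91 CPM in MR49F and fell by 2.73 (adjusted p = 1.95e-12). SLC7A2, a cationic amino acid transporter gene, fell by 2.24 (113 ± 4.44 to 23.9 ± 1.57 CPM), and OAT, which interconverts ornithine and glutamate semialdehyde, rose by 1.41 (11.7 ± 0.388 to 31.0 ± 3.40 CPM). ARG2, the mitochondrial arginase that releases ornithine, was singled out after its values were seen. Its mean was 145 ± 1.81 CPM in the LNCaP libraries, 244 ± 7.73 in MR49F and 59.8 ± 6.84 in C4-2, higher in MR49F (0.75, adjusted p = 2.29e-07) and lower in C4-2 (-1.26, adjusted p = 1.51e-10) than in LNCaP. In C4-2, OAT rose by 1.78, while SLC7A2 (-0.09, adjusted p = 0.530) and ASS1 (-0.19, adjusted p = 0.167) had no call. ASS1 passed there without C4-2 replicate 1 (-0.29, adjusted p = 0.0393) and with GC offsets (-0.25, adjusted p = 0.0328).

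In the methionine cycle, which supplies the substrate of AMD1, 1 of 6 genes rose and 1 fell in MR49F, beside 24.1% and 22.8% of all tested genes. MAT2A, the S-adenosylmethionine synthetase of most tissues, rose from 414 ± 29.3 to 695 ± 17.3 CPM (0.75, adjusted p = 6.79e-08). The 1 gene counted as lower was MAT1A, the liver form, with 7, 8 and 4 counts in LNCaP and 0, 3 and 1 in MR49F. It averaged under 1 CPM in both lines, passed the count filter through C4-2 (414, 72 and 57 counts) and was not testable with C4-2 left out of the model, so its difference between MR49F and LNCaP is given as counts only. MTRR, methionine synthase reductase, was at -0.17 (adjusted p = 0.169), and passed when C4-2 was left out of the model (-0.19, adjusted p = 0.0482) or without LNCaP replicate 2 (-0.28, adjusted p = 0.0458). In C4-2 against LNCaP, 1 of the 6 rose and 4 fell, beside 26.2% and 23.5% of all tested genes. The 1 counted as higher was MAT1A, at 0.734 ± 0.179 CPM in LNCaP and 9.05 ± 0.893 CPM in C4-2. MAT1A passed the count filter through C4-2 itself, so this difference is given as levels only. MTRR, one of those that fell (-0.34, adjusted p = 0.00930), lost its call without LNCaP replicate 3 (-0.28, adjusted p = 0.0539). Of the methionine salvage genes, which recycle the methylthioadenosine that the aminopropyl transferases release, 2 of 6 rose in MR49F, ADI1 by 0.44 and APIP by 0.44, and MRI1 fell by 0.41. Of all tested genes 24.1% rose and 22.8% fell in that comparison.

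Among relatives of the 10 genes, 3 of 5 were tested. SAT2, related to SAT1, rose in MR49F from 50.6 ± 3.45 to 68.1 ± 1.06 CPM (0.43, adjusted p = 7.67e-04), and AZIN2, related to AZIN1, rose from 1.92 ± 0.126 to 3.90 ± 0.796 CPM (1.02, adjusted p = 0.00222). AZIN2 counts were low, at 18, 18 and 13 in LNCaP and 44, 28 and 31 in MR49F. OAZ3 was at -0.38 (adjusted p = 0.0744) and passed when C4-2 was left out of the model (-0.40, adjusted p = 0.0215) or without C4-2 replicate 1 or 2 (adjusted p = 0.0408 and 0.0292). Spermidine is also used to form hypusine on eIF5A. Beside 22.8% of all tested genes, 1 of the 4 genes of that step fell in MR49F. This was EIF5A2 (19.8 ± 0.211 to 6.93 ± 0.677 CPM, log2 fold change -1.52, adjusted p = 1.32e-08), while EIF5A (0.11, adjusted p = 0.410) and DOHH (-0.13, adjusted p = 0.602) had no call. EIF5A2 was also lower in C4-2 than in LNCaP, at 15.2 ± 1.52 CPM (-0.40, adjusted p = 0.00889).

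Of 7 tested transport genes, 2 rose and 2 fell in MR49F, beside 24.1% and 22.8% of all tested genes. SLC22A3, an organic cation transporter gene, averaged 632 ± 34.1 CPM in LNCaP, 53.5 ± 3.24 in C4-2 and 0.230 ± 0.118 in MR49F (SD, n = 3 each), with 1, 2 and 3 counts in the MR49F libraries. ATP13A2, a lysosomal polyamine exporter gene, rose by 0.50 in MR49F and by 0.48 in C4-2. SLC3A2 fell by 0.28 in MR49F (adjusted p = 0.0206), a call lost without LNCaP replicate 2 (-0.27, adjusted p = 0.0691), MR49F replicate 1 (-0.28, adjusted p = 0.0529) or MR49F replicate 3 (-0.26, adjusted p = 0.0704). Of 7 tested genes of the MYC network, whose founding member binds the E-box, 3 rose and 1 fell in MR49F, beside the same shares of all tested genes (24.1% and 22.8%). The level of MYC was 272, 265 and 254 CPM in LNCaP, 384, 383 and 370 CPM in MR49F and 182, 164 and 178 CPM in C4-2. It was higher in MR49F (0.52, adjusted p = 5.39e-06) and lower in C4-2 (-0.59, adjusted p = 1.15e-06) than in LNCaP. MAX (0.37) and MXD4 (0.43) were higher in MR49F.

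**Figure D5:**
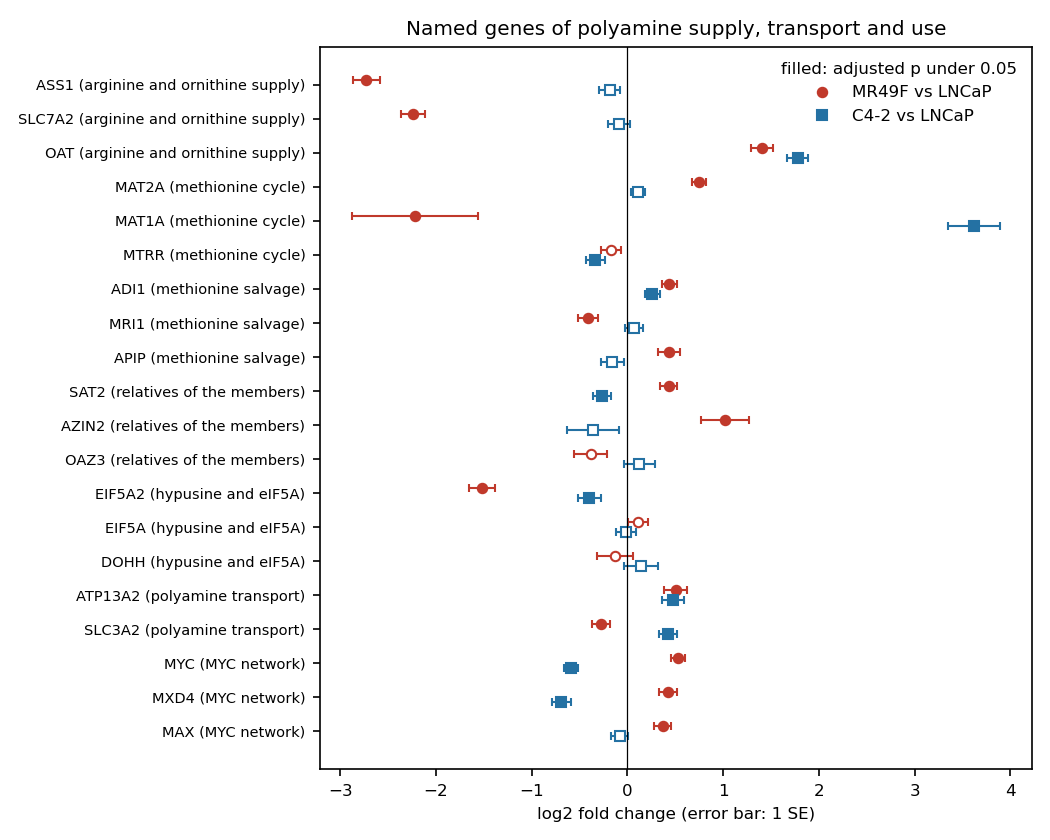
Log2 fold change with 1 SE (horizontal axis) of named genes of polyamine supply, transport and use in MR49F (circles) and C4-2 (squares) against LNCaP. Filled symbols have an edgeR adjusted p under 0.05, and SLC22A3 is left out because its value of -11.37 in MR49F is off the scale. MAT1A is drawn although it passed the count filter through C4-2 alone and averaged under 1 CPM in LNCaP and MR49F. ASS1 (-2.73), SLC7A2 (-2.24) and EIF5A2 (-1.52) lay lowest among genes with over 1 CPM in both lines.

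Genes whose pattern over the 9 libraries was most like that of ODC1, by Pearson correlation of log2 CPM among 10330 genes, were STXBP5-AS1 (r = 0.990), RIMS4 (0.984) and APLN (0.983). Those most like SAT1 were FAM50A (0.994), ARV1 (0.988) and PSME1 (0.988). All 6 were higher in MR49F than in both other lines, for example APLN at 24.1, 62.8 and 24.6 CPM and FAM50A at 60.2, 123 and 67.8 CPM in LNCaP, MR49F and C4-2. With 3 lines of 3 libraries each, these values describe mainly the difference of 1 line from the others. STXBP5-AS1 is an antisense gene, and its reads cannot be told from those of its partner without the strand setting.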

How the data were processed

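Per the labels, libraries came from a TruSeq kit that keeps strand and were read from both ends on a HiSeq2500. The authors deposited whole-number counts for each Ensembl gene, without normalization. The submitters' processing notes list GRCh38.p12, edgeR 3.12.1, HTSeq 0.6.1, TopHat2 and FastQC 0.11.3 and assign them no step. Which strand setting, annotation release or filters were used is not given in the sources used here. The antisense genes that share exons with OAZ2 and AZIN1 and the processed pseudogenes of AMD1 had at most 68 counts in a library. Protein-coding genes that share exons with PAOX (AL360181.3) and OAZ1 (AC005258.1 and JSRP1) had at most 7. How reads in shared exons were counted is not given.

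Samples were grouped by title. Of 12 columns, 9 matched a title and 3 did not and were not used. Lines were compared with edgeR 4.0.16 in R 4.3.3 by its quasi-likelihood test (robust, TMM scaling, filterByExpr by line, 1 mean per line, 6 residual degrees of freedom, no covariate), with Benjamini-Hochberg adjustment over 15407 genes and a threshold of 0.05. SE is the absolute log2 fold change over the square root of F. CPM uses TMM-scaled totals. Symbols came from a table matching 56948 entries, and coordinates and exon lengths from GENCODE 29 (GRCh38). P-values rest on the spread between biological replicates within a line, estimated for each gene over all lines together, so each comparison also carries the spread of the line left out of it. On simulated counts for 15407 genes with 200 changed, 62.7%, 79.1% and 93.9% of 1.5-, 2- and 4-fold changes were recovered for MR49F against LNCaP, with 12 unchanged genes called. In the data 47.0% of tested genes were called in that comparison, so the simulated rates need not hold there.

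The 10 genes and the other lists were chosen with earlier results of these data known. All 10 are named, and of the other lists up to 3 tested genes with the lowest adjusted p in MR49F against LNCaP, plus the 3 genes most like ODC1 and SAT1 (mean of at least 10 CPM, not on the Y chromosome). Alternatives were DESeq2 1.42.0, voom of limma 3.58.1, RLE scaling, no count filter, only the 6 libraries compared, a replicate block, C4-2 replicate 1 thinned to 17.6% of its counts, and each library left out. GC offsets and neighbour windows of 1 and 5 Mb were added after seeing the data.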

Additional observations from a re-analysis of the deposited data

How the results depend on the processing

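Of 510 values of the 10 genes under the alternatives, 498 kept their direction and side of the threshold or had no call and stayed without one, 4 lost a call, 8 gained one and none that was called changed sign. In MR49F against LNCaP the calls were 4 up and 1 down under every alternative run. In C4-2 against LNCaP the 1 gene that rose, OAZ1, was lost in some fits (0 to 1 with each library left out). There 1 to 2 genes fell with each library left out, 2 with voom, 2 without a count filter, 2 with C4-2 replicate 1 thinned and 3 with GC offsets, SMOX and AZIN1 being the genes that joined SRM. In MR49F against C4-2, 6 to 8 rose and 2 fell with each library left out. The causes of these shifts were not tested. Same-numbered libraries of different lines did not deviate together (correlation -0.0832 to 0.0562, and -0.115 to 0.127 for different numbers). No pairing by number was therefore seen, though so few libraries could hide a weak one. With a replicate block the counts for the 10 genes were 4 up and 1 down, 1 up and 1 down, and 7 up and 2 down in the 3 comparisons. The median of a gene's neighbours moved by less than their median SE in 20 of 30 cases with a 1 Mb window and in 26 of 30 with 5 Mb. Depth limits SMOX and PAOX, with as few as 16 and 18 counts in a library.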

Other observations

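Chromosome X was not the only chromosome whose genes moved together in MR49F against LNCaP. The median log2 fold changes of chromosomes 22, 19 and 16 were -0.35, -0.31 and -0.30, with 3.48%, 6.21% and 6.88% of tested genes higher and 52.2%, 47.5% and 44.8% lower. The medians of the other autosomes lay between -0.07 for chromosome 13 and 0.12 for chromosome 2. With GC content entered as an offset the medians of chromosomes 22, 19 and 16 were -0.35, -0.30 and -0.29. Across 5 equal groups of tested genes ordered by GC content the median in MR49F against LNCaP ran from 0.02 in the lowest to -0.02 in the highest, and in C4-2 against LNCaP from -0.07 to 0.10. SRM, SMOX, PAOX and OAZ1 lie in the highest group and AMD1 in the lowest.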
